A study of Mus musculus with 6 samples.

Results

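Myosin light chains and myosin binding protein C are proteins of the muscle thick filament, and their genes were followed here in quadriceps muscle of mice with 2 genotypes of the glucocorticoid receptor gene. The set held 10 genes chosen by symbol (Myl1, Myl2, Myl3, Myl4, Myl6b, Mylpf, Mylk2, Mybpc1, Mybpc2 and Mybph) out of 33641 gene symbols. Every transcript listed under these symbols was used, which gave 52 of 105129 transcript rows. All 10 genes passed the filter on low values, at least 1 TPM in at least 3 libraries. TPM is transcript abundance corrected for transcript length and scaled so that a library sums to 1000000.

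The 6 libraries came from male littermate mice about 16 weeks (4 months) old, born to heterozygous parents, with muscle taken at about ZT4, that is about 4 hours after lights on. In 3 libraries (homozygous) both copies of the gene carried the rs6190 allele, a mouse copy of a human variant, and in 3 libraries (WT) both copies were the reference allele. The allele was inherited from the parents and so was not limited to muscle, and the labels name no drug treatment. Each library is labelled as a separate replicate, but nothing ties a library to 1 mouse, so p-values measure the spread between these libraries, which may be technical. TPM keeps no sequencing depth, so depth is unknown here.

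Myosin is a motor made of heavy chains, each carrying 1 essential and 1 regulatory light chain on its lever arm. Fast fibres of limb muscle use Myl1 as essential and Mylpf as regulatory chain, while slow fibres use Myl3 and Myl2, which are also the chains of the heart's ventricle. Mylk2 is the skeletal muscle kinase that phosphorylates the regulatory chain after calcium release and thereby raises force. Myosin binding protein C lies along the thick filament and tunes cross-bridge cycling, Mybpc1 being the slow and Mybpc2 the fast type, and Mybph is a smaller relative.

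Some isoforms of Myl1, Mylpf and Mybpc1 named below differ at or near the start of the protein. These coding stretches are shown in lower case from GENCODE M21 (GRCm38), 5′ to 3′. Myl1-201 and Myl1-202 start 9789 bases apart, share their last 423 coding bases and differ in the stretch before them, which has 47 codons in the long form (188 codons in all) and 9 in the short form (150 codons).
Myl1-201: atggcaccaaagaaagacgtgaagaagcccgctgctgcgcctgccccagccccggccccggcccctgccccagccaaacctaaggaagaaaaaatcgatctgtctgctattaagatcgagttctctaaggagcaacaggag
Myl1-202: atgtccttcagtgctgaccagattgcc
Mylpf-201 (169 codons) begins with 20 codons that Mylpf-206 (149 codons) lacks, the end of the protein that holds the serine phosphorylated by the kinase.
Mylpf-201: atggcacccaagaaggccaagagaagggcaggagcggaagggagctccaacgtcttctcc
Mybpc1-202 holds 14 codons, at coding bases 64 to 105, that Mybpc1-201 lacks, and their last 10 and 61 coding bases also differ.
Mybpc1-202: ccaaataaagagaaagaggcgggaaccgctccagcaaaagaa

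Promoters are shown for 3 genes because Mybpc1 and the slow and fast light chains had the patterns described next. Each is the 250 bases before the RefSeq start in GRCm38.p6, on the gene's strand, with capitals for matches to the E-box (CANNTG, bound by myogenic factors), to the AGAACA element, found in glucocorticoid receptor sites, or to the CArG box, searched on both strands. The regions are chr10:88605153-88605402 (Mybpc1, minus strand), chr9:110763428-110763677 (Myl3, plus strand) and chr7:127211358-127211607 (Mylpf, plus strand).
Mybpc1: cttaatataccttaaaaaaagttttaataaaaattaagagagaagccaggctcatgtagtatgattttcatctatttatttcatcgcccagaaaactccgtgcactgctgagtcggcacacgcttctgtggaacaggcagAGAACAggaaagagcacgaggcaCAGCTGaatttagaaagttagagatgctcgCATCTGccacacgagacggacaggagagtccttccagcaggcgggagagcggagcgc
Myl3: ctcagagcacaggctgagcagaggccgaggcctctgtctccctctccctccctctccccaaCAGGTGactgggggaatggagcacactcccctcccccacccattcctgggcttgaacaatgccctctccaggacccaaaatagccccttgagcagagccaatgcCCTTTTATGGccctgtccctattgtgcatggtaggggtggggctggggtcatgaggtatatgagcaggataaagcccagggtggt
Mylpf: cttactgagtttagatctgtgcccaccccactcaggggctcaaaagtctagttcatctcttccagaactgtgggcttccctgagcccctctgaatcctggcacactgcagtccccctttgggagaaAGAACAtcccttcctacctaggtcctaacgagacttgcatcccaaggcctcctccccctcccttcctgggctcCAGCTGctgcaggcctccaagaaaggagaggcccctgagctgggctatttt
RefSeq promoters were found for 9 of the 10 genes, all but Mylk2, with 10 starts because Myl2 had 2. The E-box stood before 9 of 10 starts, against 66.2% of all 32851 promoters. The AGAACA element stood before 3 of 10, those of Mybpc1 (110 bases before the start), Mylpf (124 bases) and Myl4 (92 bases), against 16.1% of all. The CArG box stood before 1 (Myl3), against 1.47% of all, and the MEF2 box before 0, against 0.508%. Some RefSeq starts lay far from the start of the gene's leading isoform: Myl2 (8227 and 7762 bases), Myl1 (9702 bases) and Myl4 (26618 bases). For these genes the windows, with the AGAACA match of Myl4, do not cover the sequence next to that isoform.

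The 6 libraries were not alike. WT replicate 3 correlated least with the others, at 0.951 to 0.965 across tested genes against 0.972 to 0.987 for all other pairs, where genes are not independent replicates. The skeletal muscle markers Acta1, Ckm, Des, Ttn and Myh4 were abundant in every library, with a summed level of 42769 to 76249.6 TPM, and the heart markers Myh6, Nppa, Myl7, Tnni3 and Ryr2 summed to at most 2.55 TPM. The 10 genes together held 3.51%, 3.08% and 3.41% of all TPM in homozygous and 3.02%, 3.29% and 6.58% in WT replicates 1, 2 and 3, and mitochondrial transcripts held 20.9% to 27.4% and 14.3% to 33.9%, with WT replicate 3 lowest. The smooth muscle markers summed to 72.6 to 79.8 TPM in homozygous and 71.6 to 78.3 TPM in WT libraries. Of these, Smtn was lower in all homozygous libraries (log2 fold change -0.26), while Myh11 (0.55) and Acta2 (0.39) were higher in all of them. Cd68, the 1 tested immune cell marker, was also higher in all of them (0.77), while the untested immune markers Ptprc and Cd3e overlapped. The skeletal muscle markers Acta1 (-0.11), Ckm (-0.34) and Myh4 (-0.65) overlapped between the genotypes. The endothelial markers Cdh5 and Kdr and the untested satellite cell markers Pax7 and Myf5 overlapped as well. Des, Ttn, the endothelial marker Pecam1 and the satellite cell marker Chodl were higher in all homozygous libraries. Of all tested genes, 34.7% lay above all WT libraries in this way and 0.73% below. The part of other cell types in the results was not tested. The slow-fibre list, which holds none of the 10 genes, summed to 1533, 6083 and 1513 TPM in homozygous replicates 1, 2 and 3, and to 1379, 774 and 176 TPM in WT replicates 1, 2 and 3. In bulk tissue, fewer fibres of a type and less RNA per fibre cannot be told apart.

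No gene of the set passed the test between genotypes. With limma, 0 of 10 had an adjusted p under 0.05, in a fit where 0 of 11099 genes (0%) did. At an unadjusted p under 0.05 there was 1 of 10, Mybpc1, against 24.3% of all genes. Those genes were 2636 higher and 61 lower in homozygous muscle, a split that became 504 and 482 with quantile normalization, 405 and 512 with median centring, and 478 and 416 with a transcript length trend removed. These 3 scalings moved the median log2 fold change of all genes from 0.26 to between -0.04 and -0.01. Fold changes are homozygous minus WT on the scale of log2(TPM + 1), and they were positive for 6 of the 10 and negative for 4, with a median of 0.30 against 0.26 over all genes tested. Of all 11099 genes, 9526 (85.8%) were positive and 1573 negative. Myl4 was negative with quantile normalization and with median centring. The homozygous libraries lay above all WT libraries for 2 of the 10 genes (Mybpc1 and Myl2), against 34.7% of all genes, and below them for 0, against 0.73%.

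**Figure D1:**
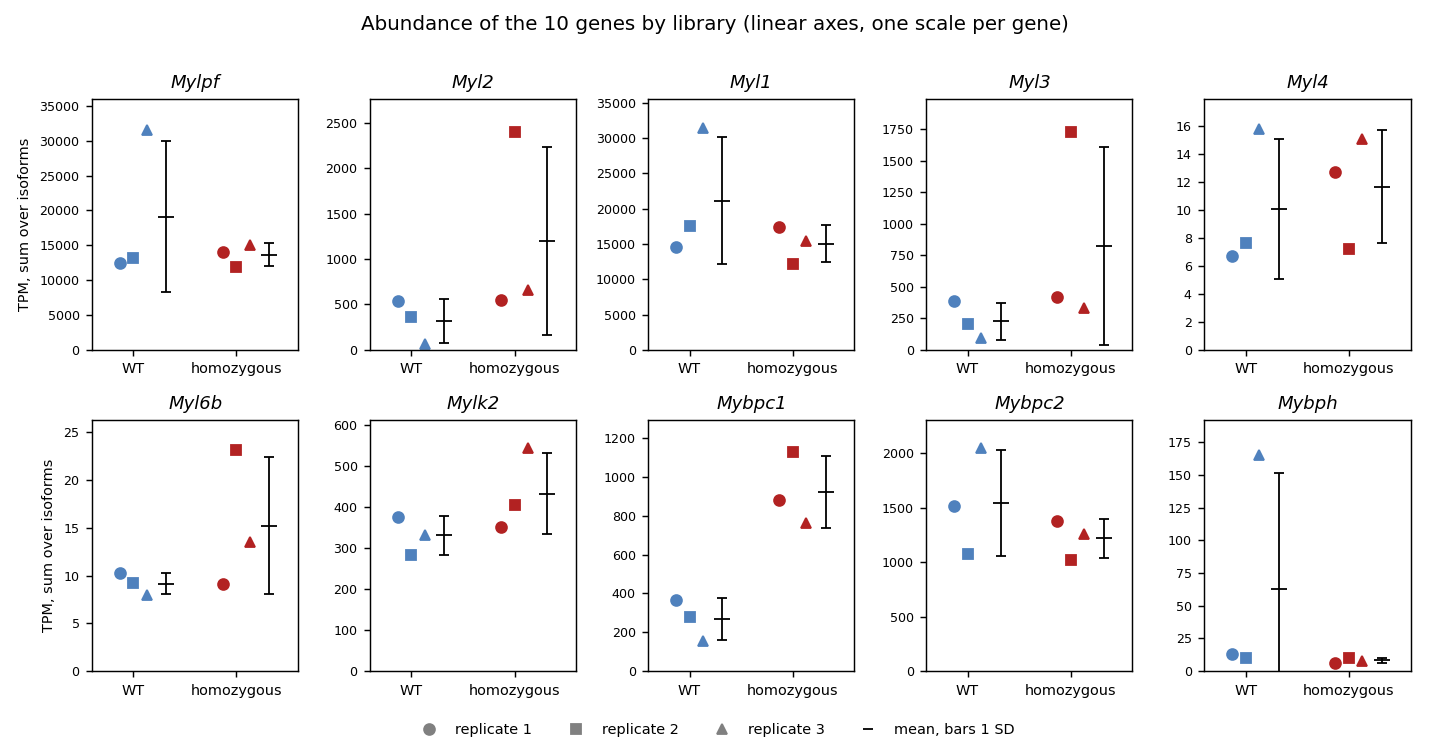
Abundance of each of the 10 genes (vertical axes, TPM summed over isoforms, linear from 0) in the 3 WT and 3 homozygous libraries, with points for libraries and the mean with bars of 1 SD, the lower bar of WT Mybph being off the axis. Mybpc1 and, narrowly, Myl2 separate the genotypes. WT replicate 3 stands highest for Mylpf, Myl1, Myl4, Mybpc2 and Mybph, and homozygous replicate 2 stands highest for Myl2, Myl3, Myl6b and Mybpc1.

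Among the regulatory light chains, Mylpf was the fast type and by far the more abundant. Mylpf (chromosome 7, 127208890 to 127214298, plus strand, GRCm38) was 14075, 11860.0 and 15058 TPM in homozygous replicates 1, 2 and 3, and 12488, 13186 and 31580.0 TPM in WT replicates 1, 2 and 3. WT replicate 3 was high and the other 5 libraries lay close together, with overlapping groups. Homozygous libraries averaged 13664 ± 1638 TPM and WT libraries 19085 ± 10827 TPM (SD, n = 3 per genotype), and their log2 fold change was -0.35 (SE 0.36; adjusted p 0.529 by limma). It was 0.083 without WT replicate 3, -0.59 without WT replicate 1, -0.55 without WT replicate 2 and 0.39 with the slow-fibre covariate.

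Myl2, the slow regulatory chain (chromosome 5, 122100951 to 122113472, plus strand), was 547, 2397 and 662 TPM in homozygous replicates 1, 2 and 3. In WT replicates 1, 2 and 3 it was 539, 358 and 62.7 TPM. The groups did not overlap, but homozygous replicate 1 and WT replicate 1 nearly met, and homozygous replicate 2 was far above the rest. Homozygous libraries averaged 1202 ± 1037 TPM and WT libraries 320.2 ± 241 TPM (SD, n = 3 per genotype), and their log2 fold change was 2.05 (SE 0.96, 95% interval -0.31 to 4.40; adjusted p 0.240 by limma). It was 1.12 without WT replicate 3, and with the slow-fibre list's mean as a covariate it was -0.038. That list holds the genes that followed Myl2 most closely, given below, so a small value with this covariate was fixed in advance.

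Of 4770 tested genes at a mean of at least 10 TPM, those with the highest Pearson correlation with Myl2 over the 6 libraries were Tnnt1 (0.999), Myh7 (0.999) and Tnni1 (0.999), given as a description. They encode slow troponin T, the slow myosin heavy chain and slow troponin I. For Mylpf the 3 were Polr2i (0.990), Nr4a1 (0.987) and Akr1b3 (0.984). All 3 were highest in WT replicate 3, as Mylpf was.

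Of the essential light chains, Myl1 was the most abundant gene of the set and ranked 16 among all genes by mean TPM, with Mylpf at rank 18. Myl1 (chromosome 1, 66924295 to 66945404, minus strand) was 17475, 12199.7 and 15447 TPM in homozygous replicates 1, 2 and 3 and 14538, 17483 and 31390.1 TPM in WT replicates 1, 2 and 3. As for Mylpf, WT replicate 3 was high and the groups overlapped. Homozygous libraries averaged 15041 ± 2661 TPM and WT libraries 21137 ± 9001 TPM (SD, n = 3 per genotype), and their log2 fold change was -0.43 (SE 0.32; adjusted p 0.394 by limma). It was -0.100 without WT replicate 3, -0.65 without WT replicate 1, -0.28 without homozygous replicate 2 and 0.22 with the slow-fibre covariate.

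Myl3, the slow essential chain (chromosome 9, 110741861 to 110769798, plus strand), was 417, 1726 and 329 TPM in homozygous and 384, 206 and 92.7 TPM in WT replicates 1, 2 and 3. Homozygous replicate 2 was again the highest and WT replicate 3 the lowest, while homozygous replicate 3 lay below WT replicate 1. Homozygous libraries averaged 824 ± 782 TPM and WT libraries 227 ± 147 TPM (SD, n = 3 per genotype), and their log2 fold change was 1.67 (SE 0.76, 95% interval -0.17 to 3.51; adjusted p 0.231 by limma). It was 0.93 without homozygous replicate 2 and 0.078 with the slow-fibre covariate.

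The remaining essential chains were scarce. Myl4, the embryonic and atrial chain (chromosome 11, 104550663 to 104595753, plus strand), was 12.7, 7.18 and 15.1 TPM in homozygous and 6.74, 7.67 and 15.8 TPM in WT replicates 1, 2 and 3. Each genotype held low and high libraries, and the log2 fold change was 0.23 (SE 0.34; adjusted p 0.668 by limma). Its sign turned with quantile normalization (-0.060) and median centring (-0.075), and leaving out each library gave 0.012 to 0.57. Myl6b, an essential chain found in slow muscle and in non-muscle cells (chromosome 10, 128494157 to 128498685, minus strand), was 9.08, 23.1 and 13.5 TPM in homozygous and 10.2, 9.19 and 8.02 TPM in WT replicates 1, 2 and 3. Homozygous replicate 2 was highest here too, the groups overlapped, and the log2 fold change was 0.59 (SE 0.29; adjusted p 0.240 by limma). Without homozygous replicate 2 it was 0.26, and quantile normalization gave 0.31, median centring 0.29 and the slow-fibre covariate 0.13.

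The kinase gene Mylk2 (chromosome 2, 152911352 to 152923068, plus strand), listed with 1 isoform, was the steadiest of the set. It was 351, 405 and 543 TPM in homozygous and 377, 284 and 333 TPM in WT replicates 1, 2 and 3, with overlapping groups and a largest to smallest ratio of 1.92. Homozygous libraries averaged 433 ± 99.4 TPM and WT libraries 331 ± 46.8 TPM (SD, n = 3 per genotype), and their log2 fold change was 0.37 (SE 0.20; adjusted p 0.259 by limma), which lay 0.11 above the median of all genes. Leaving out homozygous replicate 3 gave 0.20, quantile normalization 0.21, median centring 0.070 and removal of the length trend 0.056. Per 100 TPM of its substrates' genes (Myl2 + Mylpf) there were 2.40, 2.84 and 3.46 TPM of Mylk2 in homozygous and 2.89, 2.09 and 1.05 TPM in WT replicates 1, 2 and 3. These ratios overlapped between the genotypes (exact permutation test, two-sided, p = 0.3, n = 3 each, smallest possible p 0.1).

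Mybpc1, slow binding protein C, had the smallest p of the set. Mybpc1 (chromosome 10, 88518279 to 88605152, minus strand) was 882, 1126 and 763 TPM in homozygous replicates 1, 2 and 3 and 368, 279 and 153 TPM in WT replicates 1, 2 and 3. Every homozygous library lay above every WT library, with a wide gap between the lowest homozygous and the highest WT value. As for Myl2 and Myl3, homozygous replicate 2 was highest and WT replicate 3 lowest. Homozygous libraries averaged 923 ± 185 TPM and WT libraries 267 ± 108 TPM (SD, n = 3 per genotype), a ratio of 3.46. The log2 fold change was 1.86 (SE 0.31, 95% interval 1.14 to 2.58), or 1.59 above the median of all genes, with an unadjusted limma p of 0.000336 and an adjusted p of 0.168 over all genes.

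Mybpc1 had the same sign under each of 15 alternatives, with log2 fold changes of 1.15 to 2.13 and adjusted p-values of 0.0396 to 0.515 in limma. It was 1.51 without WT replicate 3 and 1.15 with the slow-fibre covariate. It passed the threshold in 1 of the 15, array weights, where 810 of 11099 genes passed in all. The slow-fibre list lay higher in the homozygous group as well. Its mean log2 value was 6.86, 8.77 and 6.93 in homozygous and 6.75, 6.02 and 3.53 in WT replicates 1, 2 and 3. Every homozygous value was above every WT value, so this covariate cannot be told apart from genotype. The part of the slow-fibre list in the Mybpc1 difference was not tested.

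Mybpc2, fast binding protein C (chromosome 7, 44501699 to 44524656, minus strand), was 1375, 1022 and 1257 TPM in homozygous and 1516, 1071 and 2042 TPM in WT replicates 1, 2 and 3. WT replicate 3 was the highest and the groups overlapped. Homozygous libraries averaged 1218 ± 179.6 TPM and WT libraries 1543 ± 486 TPM (SD, n = 3 per genotype), and their log2 fold change was -0.30 (SE 0.25; adjusted p 0.435 by limma). It was -0.076 without WT replicate 3, -0.18 without homozygous replicate 2 and -0.54 without WT replicate 2. Median centring gave -0.60, removal of the length trend -0.64, and the slow-fibre covariate turned it to 0.10. Mybpc1 and Mybpc2 together made 2256, 2148 and 2020.4 TPM in homozygous and 1883, 1350.4 and 2195 TPM in WT replicates 1, 2 and 3, with overlapping groups.

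Mybph, the short relative (chromosome 1, 134193448 to 134201232, plus strand), differed mainly in 1 library. It was 6.52, 10.1 and 7.88 TPM in homozygous replicates 1, 2 and 3 and 13.3, 9.89 and 165 TPM in WT replicates 1, 2 and 3, so WT replicate 3 held 14.2 times the mean of the other WT libraries. The log2 fold change of -1.71 (SE 1.06; adjusted p 0.333 by limma) became -0.46 without that library. Actc1, the cardiac and embryonic actin, was also highest in this library, with 14.7, 12.9 and 12.9 TPM in homozygous and 12.0, 18.9 and 363 TPM in WT replicates 1, 2 and 3.

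**Figure D2:**
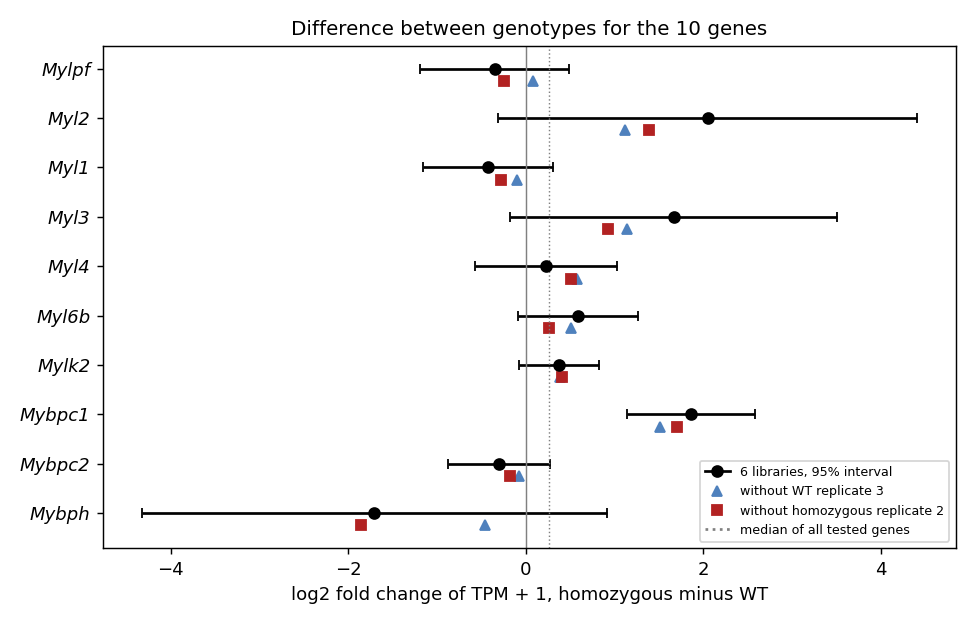
Log2 fold change of TPM + 1, homozygous minus WT (horizontal axis), for each of the 10 genes, with 95% limma intervals from all 6 libraries (black) and values without WT replicate 3 (triangles) or without homozygous replicate 2 (squares), and a dotted line at the median of all tested genes. Of the 10 intervals, that of Mybpc1 (1.14 to 2.58) does not include 0, and those of Myl2 and Mybph are the widest.

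Shares within a slow and fast pair do not move with the scaling of a library. Mybpc1 made up 39.1%, 52.4% and 37.8% of Mybpc1 + Mybpc2 TPM in homozygous replicates 1, 2 and 3, and 19.5%, 20.7% and 6.98% in WT replicates 1, 2 and 3. Every homozygous share was above every WT share, with means of 43.1% ± 8.11 and 15.7% ± 7.60 (SD, n = 3 each). The difference was 27.4 percentage points (exact permutation test, two-sided, p = 0.1, the smallest this design allows; 0.3 after Benjamini-Hochberg adjustment over 3 pairs). Leaving out each library in turn gave 22.7 to 30.02 points.

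For the light chains, the slow member was a small part in every library. Myl2 was 3.74%, 16.8% and 4.21% of Myl2 + Mylpf in homozygous and 4.14%, 2.65% and 0.198% in WT replicates 1, 2 and 3. Homozygous replicate 1 lay below WT replicate 1, so the groups overlapped (exact permutation test, two-sided, p = 0.2, n = 3 each; adjusted 0.3). Myl3 was 2.33%, 12.4% and 2.09% of Myl1 + Myl3 in homozygous and 2.57%, 1.16% and 0.295% in WT replicates 1, 2 and 3. These groups overlapped as well (exact permutation test, two-sided, p = 0.3, n = 3 each; adjusted 0.3). Without homozygous replicate 2 the differences of 5.93 and 4.26 points became 1.65 and 0.864 points.

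**Figure D3:**
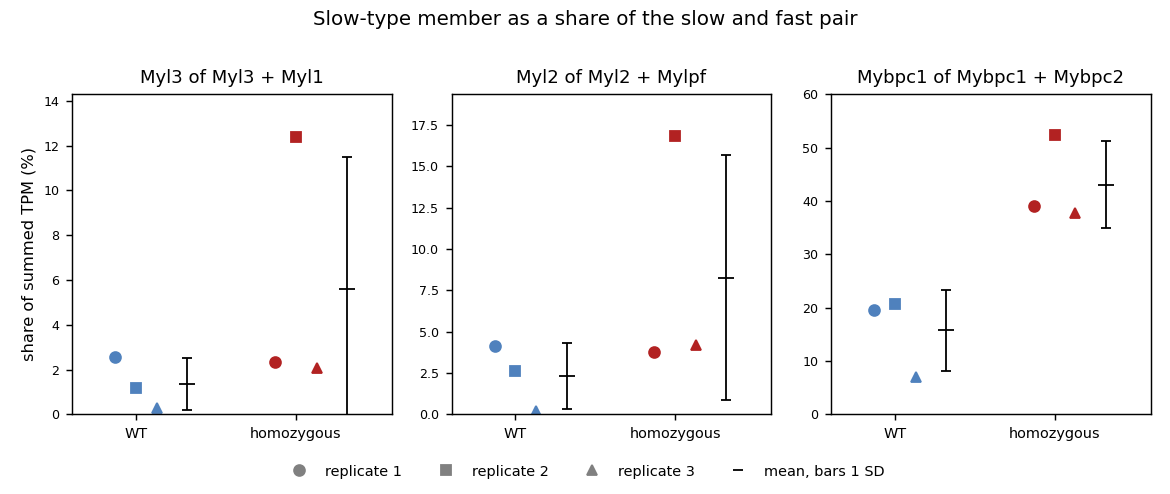
Share of the slow-type gene in the summed TPM of each slow and fast pair (vertical axes, percent, from 0) in the WT and homozygous libraries, with points for libraries and the mean with bars of 1 SD, cut at 0. The Mybpc1 shares of the genotypes do not overlap (at least 37.8% against at most 20.7%), while the Myl3 and Myl2 shares do.

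Essential and regulatory light chain transcripts were present in similar totals. The ratio of essential (Myl1 + Myl3) to regulatory (Myl2 + Mylpf) TPM was 1.22, 0.977 and 1.004 in homozygous and 1.15, 1.31 and 0.995 in WT replicates 1, 2 and 3. All 6 ratios lay between 0.977 and 1.31, and the genotypes overlapped (exact permutation test, two-sided, p = 0.6, n = 3 each). The ratio of Mylpf to Myl1 was similarly narrow, at 0.754 to 1.01 over the 6 libraries, although WT replicate 3 held 2.46 times the mean of the other WT libraries for Mylpf and 1.96 times for Myl1.

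Of the isoform rows, 43 of 52 passed the filter and 0 of 43 were past an adjusted p of 0.05 in limma, against 0.0425% of 21165 isoforms. At an unadjusted p under 0.05 there were 9 of 43, against 15.7% of all. Homozygous libraries lay above all WT libraries for 8 of 43, against 25.6%, and below them for 0, against 2.11%. Of these 8 rows, 4 were of Mybpc1. How reads shared between isoforms or between related light chain genes were split is unknown from the labels, so isoform values are less certain than gene sums.

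The Mybpc1 rows did not all follow the gene. Mybpc1-202, a full-length coding isoform of 3922 nt, was 349.8, 477 and 296 TPM in homozygous and 126, 104 and 37.0 TPM in WT replicates 1, 2 and 3. Mybpc1-201, 3752 nt and without the 14 codons shown above, was 231, 254 and 239 TPM in homozygous and 78.2, 51.04 and 6.98 TPM in WT replicates 1, 2 and 3. Both rows separated the genotypes, with log2 fold changes of 2.21 (SE 0.46) and 2.92 (SE 0.80) and adjusted p-values of 0.240 and 0.264 in limma. The retained-intron row Mybpc1-204 separated them too, at 144 to 239 TPM against 5.61 to 56.4 TPM. So did Mybpc1-206, an incomplete row chosen after its values were seen, at 13.05 to 20.3 TPM against 0.886 to 5.41 TPM.

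Mybpc1-205 and Mybpc1-203, short rows at the 3′ end of the gene (chromosome 10, 88519387 to 88536482 and 88518282 to 88523278), overlapped between genotypes. Mybpc1-205 was 78.6, 58.7 and 33.7 TPM in homozygous and 67.9, 48.02 and 58.9 TPM in WT replicates 1, 2 and 3, a log2 fold change of -0.098. Mybpc1-203, a retained-intron row, was 34.2, 77.0 and 36.7 TPM in homozygous and 33.8, 22.6 and 43.9 TPM in WT replicates 1, 2 and 3, a log2 fold change of 0.49. The full-length rows together (Mybpc1-201 + Mybpc1-202) were 616 ± 102 TPM in homozygous and 134 ± 82.01 TPM in WT libraries (SD over 3 libraries in each group), with a ratio of 4.58. The gene sum had a ratio of 3.46.

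**Figure D4:**
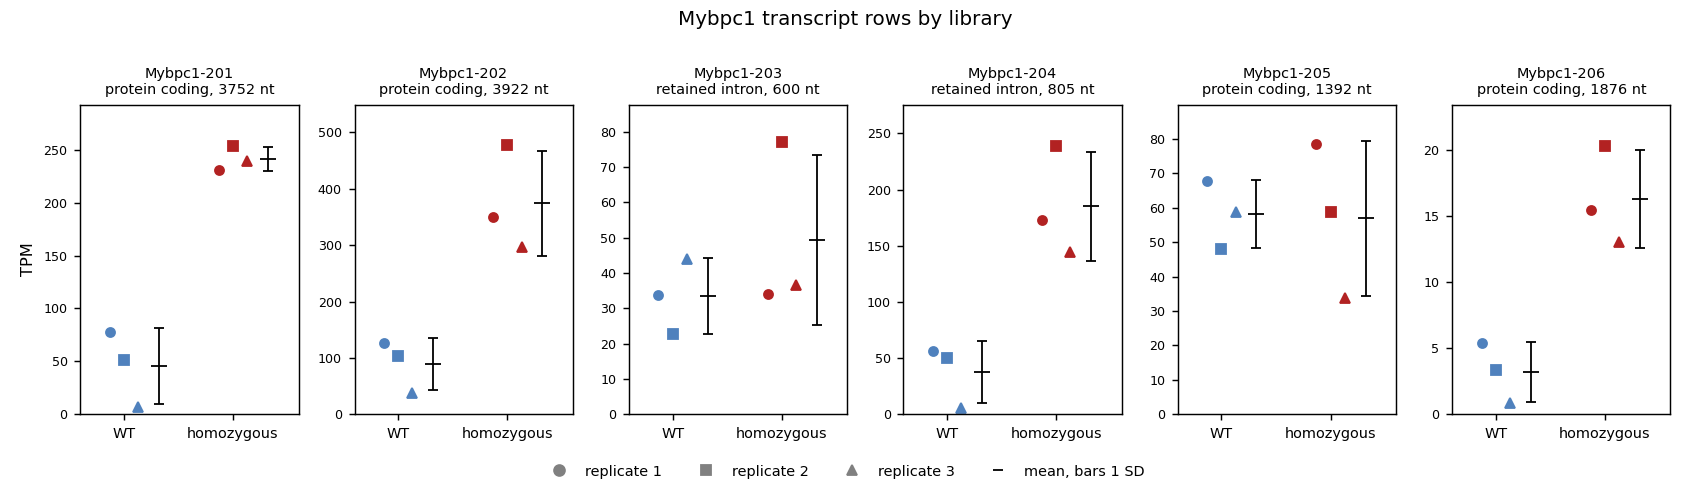
TPM (vertical axes, linear from 0) of the 6 Mybpc1 transcript rows in the WT and homozygous libraries, with points for libraries and the mean with bars of 1 SD. Mybpc1-201, Mybpc1-202, Mybpc1-204 and Mybpc1-206 lie higher in all homozygous libraries, while Mybpc1-203 and Mybpc1-205 overlap.

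As shares of the gene sum, 20 isoforms of the set with a mean share of at least 5% were compared by exact permutation tests. With 3 against 3 libraries an exact permutation test cannot go below p = 0.1, so 0 of 20 could pass, and the smallest value adjusted over the 20 was 0.25. Shares did not overlap for 8 of the 20, 6 higher in the homozygous group, against 8.06% of 25507 isoforms in all genes, and 2 lower, against 7.86%. Of the 8, 5 belonged to Mybpc1, whose shares sum to 100 and so move together. Mybpc1-205 was 8.91%, 5.22% and 4.42% of Mybpc1 in homozygous and 18.5%, 17.2% and 38.4% in WT replicates 1, 2 and 3. Mybpc1-202 was 38.8% to 42.4% against 24.1% to 37.2%, and Mybpc1-201 was 22.5% to 31.4% against 4.55% to 21.3%.

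The other 3 such isoforms were Myl2-201, Myl3-201 and Myl4-203. Myl2-201, the leading Myl2 row, was 94.2% to 94.4% of the gene in homozygous and 87.6% to 93.1% in WT libraries. Myl3-201, which codes for the full 204 codons, was 82.2%, 83.7% and 89.4% against 81.7%, 72.4% and 73.2% in replicates 1, 2 and 3, so the groups nearly met. Its partner Myl3-202 (127 codons) was 53.6, 188 and 0.00717 TPM in homozygous and 43.4, 46.5 and 16.4 TPM in WT replicates 1, 2 and 3, so it was nearly absent from homozygous replicate 3 alone. Myl4-203 was 3.20, 3.26 and 6.07 TPM against 1.14, 0.431 and 2.07 TPM, low values in every library. Of the others with a mean share of at least 5%, Myl4-202, Myl4-201, Myl4-204, Myl3-203, Mybph-201 and Mybph-202 overlapped between genotypes in TPM and share, as did Mybpc2-201, Myl6b-201, Mylpf-201 and both forms of Myl1.

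The forms of Myl1 kept a nearly fixed proportion. Myl1-202, the short form that starts inside the gene, was 12470, 8693 and 10886 TPM in homozygous and 10520.2, 12406 and 21223 TPM in WT replicates 1, 2 and 3. It made up 77.03%, 77.2% and 76.4% of Myl1-201 + Myl1-202 in homozygous and 77.7%, 77.7% and 73.3% in WT replicates 1, 2 and 3, with overlapping groups (exact permutation test, two-sided, p = 1, n = 3 each). WT replicate 3 had the lowest share of the short form, in the library with the most Myl1.

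Mylpf-206, chosen after its values were seen and with a mean share of 3.27%, lacks the first 20 codons, starts 2709 bases upstream of Mylpf-201 and varied far more. It was 167, 53.8 and 100.2 TPM in homozygous and 25.4, 512 and 4181 TPM in WT replicates 1, 2 and 3. As a share of Mylpf-201 + Mylpf-206 it was 1.21%, 0.464% and 0.682% in homozygous and 0.206%, 3.97% and 13.4% in WT replicates 1, 2 and 3. The WT group held both the lowest and the highest value, so the genotypes overlapped (exact permutation test, two-sided, p = 0.4, n = 3 each). Mylpf-201 itself was 11520 to 14588 TPM in homozygous and 12296 to 27005 TPM in WT libraries.

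Other light chain and binding protein genes included the non-muscle and cardiac types. Of 8 genes on this list 5 were tested, 0 of 5 passed in limma (2 at an unadjusted p under 0.05, against 24.3% of all genes), and 5 of 5 were higher in homozygous muscle, against 85.8% of all genes, with a median log2 fold change of 0.18, below the 0.26 of all genes. This direction depended on scaling, as 2 of 5 were higher with quantile normalization and with median centring. Myl12a, a regulatory chain of non-muscle myosin, was 430.04, 719 and 453 TPM in homozygous and 366, 244 and 130.2 TPM in WT replicates 1, 2 and 3 (log2 fold change 1.19, SE 0.37; limma, adjusted p 0.168). Myl10 had a log2 fold change of 1.19 (SE 0.34) at 0 to 4.07 TPM, and Myl6, the essential chain of smooth muscle and non-muscle myosin, one of 0.18 (SE 0.16). The cardiac genes Myl7, Mybpc3 and Mybphl reached at most 0.326 TPM in any library.

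Genes that set light chain phosphorylation were measured through 10 genes, of which 9 were tested. In limma 0 of 9 passed (2 at an unadjusted p under 0.05, against 24.3% of all genes). Of the 9, 7 were higher in homozygous muscle, against 85.8% of all genes. Their median log2 fold change was 0.34, and quantile normalization gave 0.066, median centring 0.041 and removal of the length trend 0.021. Mylk4, a further myosin light chain kinase gene, was 514, 448 and 518 TPM in homozygous and 282, 387 and 282 TPM in WT replicates 1, 2 and 3, with groups that did not overlap (log2 fold change 0.65, SE 0.17; limma, adjusted p 0.168). Ppp1cb, the catalytic subunit of myosin phosphatase, had a log2 fold change of 0.57 (SE 0.33) and Ppp1r12b, a targeting subunit, 0.53 (SE 0.17). Quantile normalization left 6 of 9 higher and median centring 5 of 9.

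The slow and fast fibre lists give the setting of the members. Of 10 slow-fibre genes 0 passed in limma (1 at an unadjusted p under 0.05, against 24.3% of all genes). All 10 were higher in homozygous muscle, against 85.8% of all genes. Their median log2 fold change was 2.31, or 1.28 without WT replicate 3. Myh7 (2.91, SE 1.30), Tpm3 (2.80, SE 1.22) and Tnni1 (2.71, SE 1.24) had the largest values. Of 11 fast-fibre genes 0 passed in limma (2 at an unadjusted p under 0.05, against 24.3% of all genes). In homozygous muscle 2 were higher, against 85.8% of all genes, and 9 lower, with a median of -0.44, or -0.10 without WT replicate 3. Quantile normalization made 3 higher and leaving out WT replicate 3 made 4 higher. With the slow-fibre score as covariate 10 of 11 were higher, with a median of 0.19. The 2 higher genes were the heavy chain genes Myh1 (1.77, SE 0.25) and Myh2 (1.36, SE 0.38). Of the 9 lower, Pvalb, the fast-fibre calcium buffer, lay furthest from 0 (-0.65, SE 0.41).

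The developmental list held sarcomere genes and the myogenic factor genes Myog and Myod1. Actc1 reached 363 TPM in WT replicate 3 and at most 18.9 TPM in any other library. Myod1 reached at most 30.5 TPM, and Myh3, Myh8, Tnnt2 and Myog at most 5.98 TPM. Of 6 genes 5 were tested and 0 passed in limma (1 at an unadjusted p under 0.05, against 24.3% of all genes). In homozygous muscle 3 were higher, against 85.8% of all genes, and 2 lower. Their median log2 fold change of 0.12 turned to -0.15 with quantile normalization. Myh3, the embryonic heavy chain, was at most 0.912 TPM in any library. Actc1 had a log2 fold change of -1.65 (SE 1.28), Myod1 of 0.62 (SE 0.48) and Myog of -0.50 (SE 0.20).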

How the data were processed

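Messenger RNA was enriched by poly-A selection and sequenced with a strand-marking kit from mouse quadriceps (3 homozygous and 3 WT libraries), per the labels' protocols. The authors deposited TPM per Ensembl transcript, 1 column per library, per the file headers. Per the submitters' processing notes, FastQC, Trimmomatic, HISAT2 and kallisto were used with the mm10 build; their roles, versions and settings are not stated there. Each column summed to 1000000, so depth is unknown, and 0 columns were left unmatched.

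TPM was summed per gene and tested as log2(TPM + 1), a scale that understates changes of low genes, with limma 3.58.1 in R 4.3.3 (mean-variance trend, robust). The filter kept features that reached 1 TPM in 3 or more of the libraries (11099 genes, 21165 isoforms), and p-values were adjusted by Benjamini-Hochberg over all of them. Positions are from GENCODE M21 (GRCm38), which matched all 52 member rows with their version.

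Members and lists were chosen with earlier results of these data known. All 10 members were named, and of each list up to 3 tested genes with the largest change; isoforms were named at a mean share of at least 5%, and others are said to be chosen after their values were seen. Single shares were compared by exact permutation tests.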

Additional observations from a re-analysis of the deposited data

How the results depend on the processing

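Alternatives were quantile normalization, median centring, no filter, a pseudocount of 0.1, array weights, mitochondrial transcripts left out, a slow-fibre score as covariate (not run for isoforms), the replicate number as a block and leaving out each library; removal of a transcript length trend (loess, span 0.5) was chosen after seeing the data. The 0 genes past the threshold became 810 of 11099 with array weights, and 0 to 2 without 1 library. The 0 member genes became 1 of 10 (Mybpc1) with array weights. That setting also called 1 of 11 fast-fibre genes and 2 of 9 genes of light chain phosphorylation. Of the markers it called 1 of 5 for skeletal muscle and the 1 tested for immune cells (Cd68). The 9 isoforms became 3 with quantile normalization, 5 with median centring, 0 with no filter, 4 with a pseudocount of 0.1, 14 with array weights, 5 with mitochondrial transcripts left out, 0 with the replicate block, and 0 to 38 without 1 library (38 without WT replicate 1, 8 without WT replicate 2). The replicate block gave 0 genes and 0 member genes, and Mybpc1 had an adjusted p of 0.105 in limma with it. The replicate numbers are not said to mark a litter or batch, so they were not taken as pairs. Deviations from the group mean correlated across genes at -0.071, 0.061 and -0.013 for same-numbered libraries. For differently numbered libraries the range was -0.139 to 0.131. With 3 libraries per group these values cannot tell whether the libraries were paired.

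Signs turned for Myl1 (0.22), Myl2 (-0.038), Mylpf (0.39) and Mybpc2 (0.10) with the slow-fibre covariate, for Myl4 with quantile normalization (-0.060) and median centring (-0.075), and for Mylpf with array weights (0.0032) and without WT replicate 3 (0.083; leaving out each library gave -0.59 to 0.083). The cause was not tested. The slow-fibre score was itself higher in every homozygous library than in every WT library, so turns with that covariate cannot be told apart from genotype. Myl3, Myl6b, Mylk2, Mybpc1 and Mybph kept their sign under all 15 alternatives. The exact tests of shares could not pass 0.05 at this size and say nothing of stability.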
